A study of Mus musculus with 10 samples.

Results

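The mitochondrial genome of the mouse carries 37 genes, 13 that code for proteins, 2 for ribosomal RNAs and 22 for transfer RNAs, and all 37 were followed here in the tibialis anterior (TA), a shin muscle made mostly of fast fibers, in mice with and without a tumor. The members were every gene whose symbol starts with mt-, and all 37 were found among the 39179 genes listed in the read-count files. The groups were 4 Control mice injected with phosphate-buffered saline and 6 LLC mice injected in both flanks with Lewis Lung Carcinoma cells, a mouse lung cancer line that causes cachexia, the wasting of muscle and body weight in cancer. Per the sample labels both groups were C57BL/6J mice with an age of 10 weeks. The labels give tumor development as 0 days in Control and 23 days in LLC. The series text instead gives male C57BL/10 mice of 8 weeks, studied after 22 days, and which description holds is not settled here. The 6 LLC mice were survivors of the whole period, per the study's methods. Each mouse gave 1 library of total RNA, and all 10 libraries were read in 1 lane. Since the RNA came from whole muscle, fewer cells of a type and less RNA per cell cannot be told apart.

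Mitochondrial DNA is transcribed from both strands into long precursors that span nearly the whole circle. In these precursors most protein-coding and rRNA sequences are separated by tRNAs, which are cut out to free the RNAs on either side. The proteins are core subunits of respiratory complexes I, III and IV and of the ATP synthase (complex V), the rRNAs form the ribosome that makes them, and the remaining subunits come from nuclear genes. In muscle this system is densest in slow and oxidative fibers, so the abundance of its RNAs varies with fiber type as well as with mitochondrial content.

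The tRNAs shown here are those to which the results below return, with the anticodon in capitals. The first lies between both rRNA genes, and the second was the tRNA with the largest rise relative to mitochondrial mRNA. The third had no count in 1 library, and the last 2 had the most counts among the tRNAs. They are given 5′ to 3′ as DNA from the GENCODE M21 transcripts (build mm10), at chrM:1025-1093 (+), chrM:5018-5086 (−), chrM:6870-6938 (−), chrM:14071-14139 (−) and chrM:15356-15422 (−).
mt-Tv: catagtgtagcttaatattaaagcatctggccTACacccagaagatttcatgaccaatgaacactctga
mt-Ta: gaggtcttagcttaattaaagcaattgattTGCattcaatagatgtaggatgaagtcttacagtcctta
mt-Ts1: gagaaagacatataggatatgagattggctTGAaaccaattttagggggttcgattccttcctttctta
mt-Te: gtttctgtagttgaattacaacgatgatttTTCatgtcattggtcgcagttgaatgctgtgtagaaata
mt-Tp: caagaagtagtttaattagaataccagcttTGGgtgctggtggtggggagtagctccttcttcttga
All are shorter than the 100-base reads of these libraries, so a read that covers one of them whole also extends into its neighbours.

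The classes of mitochondrial RNA differed in direction. The 13 protein-coding genes took 29.2% ± 1.02 of all counts in the 4 Control libraries (mean ± SD) and 25.1% ± 2.58 in the 6 LLC libraries. The rRNA genes had a larger share in LLC, with 0.301% ± 0.0266 in Control and 0.433% ± 0.0506 in LLC. Transfer RNA genes took 0.0356% ± 0.00276 and 0.0341% ± 0.00389.

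Library by library, the coding share was lowest in LLC 1, at 21.4% of counts, and reached 27.5% in the highest LLC library, below the lowest Control library at 28.1%. In the rRNA class Control 1 to 4 had 0.306%, 0.311%, 0.325% and 0.263%, whereas LLC ran from 0.374% through a median of 0.426% to 0.526% in LLC 1. The groups therefore did not overlap in either class, and LLC 1 was at the low end of one and the high end of the other. The tRNA shares overlapped, with a range of 0.0327% to 0.0386% in Control beside 0.0296% to 0.0377% in LLC. For every 100 counts of mitochondrial coding genes there were 1.03 ± 0.0865 rRNA counts in Control and 1.75 ± 0.384 in LLC. These sums are descriptions and were given no test.

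**Figure D1:**
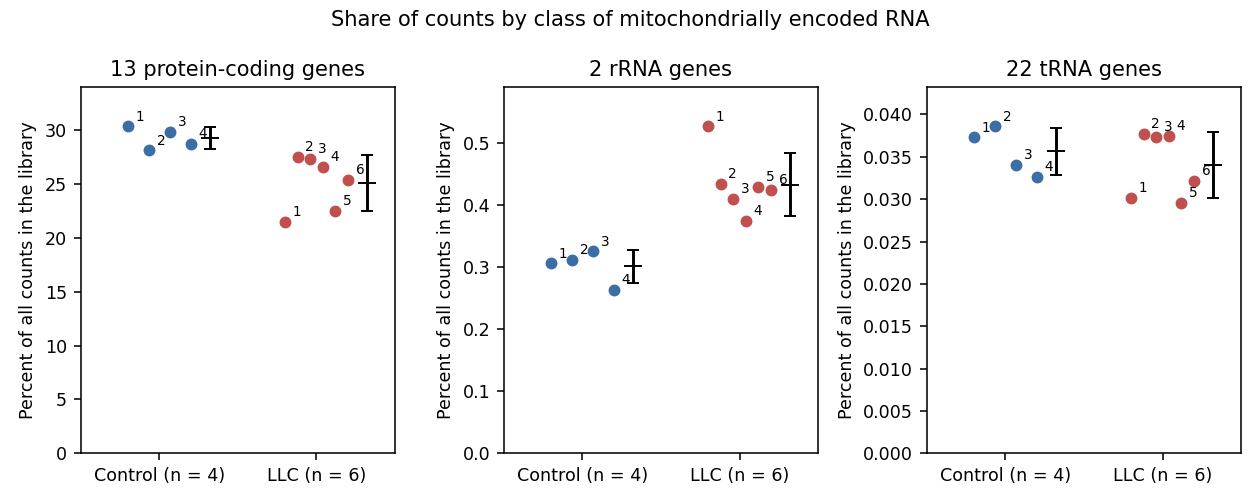
Percent of all counts in each library (y axes, each starting at 0) taken by the 13 protein-coding, 2 rRNA and 22 tRNA genes, with points numbered by replicate and bars for the group mean ± SD (Control n = 4, LLC n = 6). All 6 LLC libraries lie below Control for coding genes and above Control for rRNA genes, whereas the tRNA shares overlap.

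Gene by gene, edgeR's quasi-likelihood test was applied to the 12690 genes that passed a filter on low counts, with libraries scaled by TMM factors. A gene was called when its p, adjusted after Benjamini and Hochberg, was at most 0.05 and it differed by 1.5-fold or more. All 13 coding genes, both rRNA genes and 15 of the 22 tRNA genes were tested. None of these 30 members was called, where 5.63% of all genes tested were. Of the members, 9 had an unadjusted p of 0.05 or less, as did 27.4% of all genes tested. DESeq2 called 1 (mt-Ta), and limma voom with quality weights called 0. Without the minimum fold 1 member passed, mt-Rnr1, against 6.99% of all genes.

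The coding genes shared the direction of their mean difference. Every one of the 13 had a lower mean in LLC, with log2 fold changes from −0.54 (mt-Nd4l) to −0.16 (mt-Nd3) and a median of −0.31, beside a median of 0.0019 over all genes tested. No coding gene passed at an adjusted p of 0.05, the values running from 0.142 to 0.389. In 9 of the 13 all 6 LLC libraries lay below all 4 Control libraries, an arrangement found in 9.57% of all genes tested. The exceptions were mt-Nd2, mt-Co3, mt-Nd3 and mt-Nd4l. Coding genes share precursors, so these 13 are not independent observations. Leaving out mt-Nd4l, the coefficient of variation of CPM was 2.76% to 5.91% in Control and 11.5% to 23.0% in LLC.

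Complex IV, cytochrome c oxidase, draws its catalytic core from mt-Co1, mt-Co2 and mt-Co3. The most abundant member was mt-Co1, which holds the site where oxygen is reduced. Its CPM in Control 1 to 4 was 88219, 81069, 83932 and 84435, and in LLC it ran from 44317 through a median of 64764 to 74578. No LLC library reached the lowest Control, and the log2 fold change of mt-Co1 was −0.43 ± 0.17 (SE, adjusted p = 0.142). For mt-Co2, which takes electrons from cytochrome c, Control CPM was 27180, 24861, 26463 and 25056, and LLC ran from 15346 (median 20969) to 24838. The lowest Control and the highest LLC library of mt-Co2 lay almost side by side, at a log2 fold change of −0.31 ± 0.15 (adjusted p = 0.203). For mt-Co3 the Control values of 38208, 34759, 37473 and 35166 CPM overlapped with LLC, which ran from 21589 (median 30244) to 34934 (log2 fold change −0.27 ± 0.16, adjusted p = 0.261).

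Complex III receives its only mitochondrially encoded subunit, cytochrome b, from mt-Cytb. Control libraries had 31075, 27547, 29520 and 28625 CPM, and LLC libraries 20365 to 27013 with a median of 24364. The groups did not overlap in mt-Cytb, with a log2 fold change of −0.29 ± 0.13 (adjusted p = 0.186).

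The ATP synthase takes mt-Atp6, part of the proton channel, and the small subunit mt-Atp8, whose reading frames overlap by 43 bases. In mt-Atp6 Control had 31175, 28024, 30744 and 28810 CPM and LLC 18680 to 27444 around a median of 24727 (log2 fold change −0.31 ± 0.14, adjusted p = 0.185). In mt-Atp8 Control had 5310, 5013, 5093 and 5011 CPM and LLC 2837 to 4543 around 4319 (log2 fold change −0.34 ± 0.14, adjusted p = 0.148). Neither gene overlapped between groups. The lowest LLC library differed between these neighbours, LLC 1 in mt-Atp6 and LLC 5 in mt-Atp8.

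Complex I, the NADH dehydrogenase, has the other 7 coding genes, all of them parts of its proton-pumping membrane arm. The gene nearest to the rRNAs, mt-Nd1, had 26720, 24529, 26250 and 24719 CPM in Control and 11906 to 24011 in LLC, with a median of 20770 (log2 fold change −0.40 ± 0.19, adjusted p = 0.192). Its lowest LLC value was in LLC 1, and the next was 16751 in LLC 5. The next gene, mt-Nd2, had 22292, 19666, 20635 and 20337 CPM in Control and 12843 (median 18361) to 19708 in LLC (log2 fold change −0.27 ± 0.15, adjusted p = 0.258).

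Of the remaining complex I genes, mt-Nd4 had 30207, 26345, 28116 and 27249 CPM in Control and 17930 to 25530 in LLC around 24033 (log2 fold change −0.31 ± 0.15, adjusted p = 0.194). The mt-Nd5 values were 16615, 14836, 14964 and 15229 CPM in Control and 7371 to 14638 in LLC around 12260 (log2 fold change −0.41 ± 0.18, adjusted p = 0.164). No LLC library of either gene reached Control, and LLC 5 was the lowest in both. The mt-Nd3 gene differed least, with 3494, 3564, 3575 and 3198 CPM in Control and 2512 to 3475 in LLC around 3108 (log2 fold change −0.16 ± 0.12, adjusted p = 0.376).

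The opposite strand carries a single protein-coding gene, mt-Nd6. Its Control values were 5840, 5346, 5597 and 5306 CPM, and in LLC they ran from 3657 to 5221 around 4701. The groups did not overlap (log2 fold change −0.29 ± 0.13, adjusted p = 0.173), beside log2 fold changes of −0.29 for mt-Cytb and −0.41 for mt-Nd5, its neighbours on the other strand. The strand setting of the counting is known only as the default of the counter, and reads of mt-Nd6 and of RNA antisense to it cannot be told apart with certainty.

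**Figure D2:**
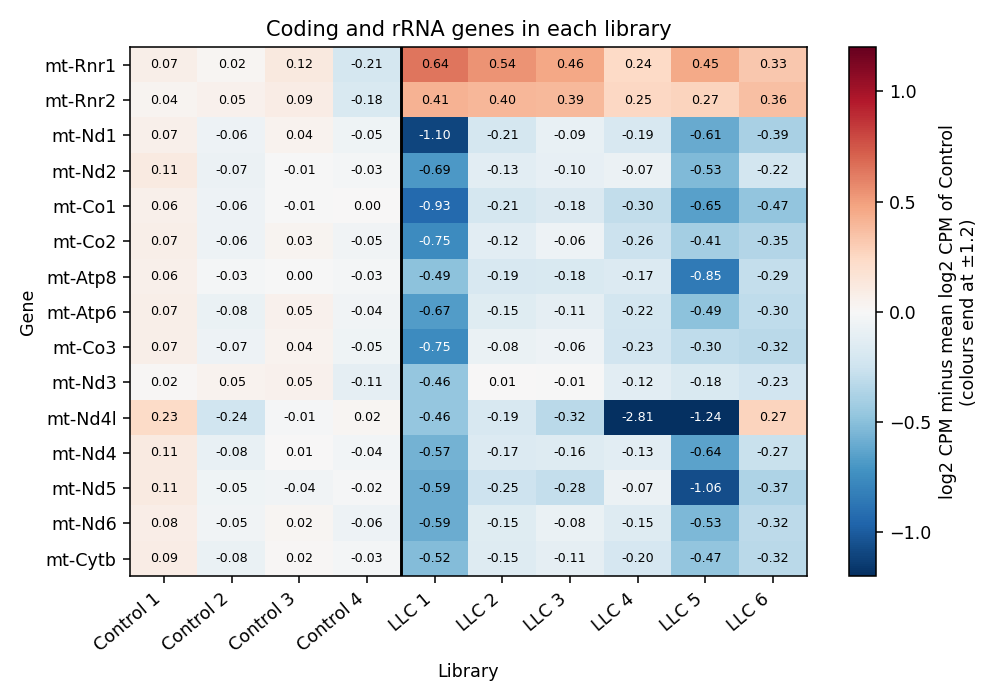
Each cell gives log2 CPM of 1 gene (rows, in gene order) in 1 library (columns) minus the Control mean of that gene's log2 CPM, with blue for lower and red for higher and colours ending at ±1.2. Both rRNA rows are positive in all 6 LLC libraries, from 0.24 to 0.64, while coding rows are mostly negative. The deepest cell is mt-Nd4l at −2.81 in LLC 4, and among the other coding genes mt-Nd1 at −1.10 in LLC 1 and mt-Nd5 at −1.06 in LLC 5.

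A member that stood apart was mt-Nd4l, another complex I gene, which overlaps mt-Nd4 by 7 bases. Its counts in Control 1 to 4 were 471, 365, 389 and 394, and in LLC 1 to 6 they were 300, 330, 293, 60, 182 and 457. The low value in LLC 4 was not shared by its neighbour mt-Nd4, which had its highest LLC level there, and the log2 fold change of mt-Nd4l was −0.54 ± 0.40 (adjusted p = 0.389). Its sequence is shown because its level was far below that of every other coding gene and because a copy of it lies in the nuclear genome. In capitals are the 7 bases it shares with the start of mt-Nd4 (chrM:9877-10173, + strand, GENCODE M21 transcript, mm10).
mt-Nd4l: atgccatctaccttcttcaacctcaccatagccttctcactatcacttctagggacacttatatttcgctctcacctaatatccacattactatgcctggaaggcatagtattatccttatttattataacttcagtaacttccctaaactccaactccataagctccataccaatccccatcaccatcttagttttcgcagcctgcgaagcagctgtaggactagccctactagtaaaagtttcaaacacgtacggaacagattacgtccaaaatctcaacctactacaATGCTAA
The nuclear pseudogene Gm10222 (chr1:24612407-24612700, − strand) is identical to it at all 294 bases of the copy. Gm10222 held 74 to 177 counts per library.

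Other members have nuclear copies too. Stretches of 100 bases that also occur in another annotated transcript made up 99.9% of mt-Co3, 99.5% of mt-Co2 and of mt-Atp6, 98.5% of mt-Nd4l, 97.6% of mt-Nd3, 60.8% of mt-Nd4, 30.8% of mt-Co1 and 3.2% of mt-Nd2. The other 5 coding genes and both rRNA genes had no such stretch. Of the copies on chromosome 1, Gm10222 alone was among the genes listed. Those of mt-Co1, mt-Co2, mt-Atp6, mt-Co3, mt-Nd3 and mt-Nd4 were not listed. Counts of the shared genes depend on how reads with several matches were handled, and the part of this in their levels was not tested. Every coding gene, with or without such stretches, had a lower mean in LLC. The groups overlapped in mt-Nd2, mt-Co3, mt-Nd3 and mt-Nd4l, all of which have such stretches. They did not overlap in mt-Co1, mt-Co2, mt-Atp6 and mt-Nd4, which have them too, nor in the 5 coding genes without them.

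Levels were compared between genes as CPM per kilobase of gene in Control. The order began with mt-Co1 at 54637 ± 1902 (SD, n = 4), followed by mt-Co3 at 46431 ± 2164 and mt-Atp6 at 43595 ± 2222, which overlapped each other, and then mt-Co2 at 37851 ± 1634. After these came mt-Nd1 at 26703 ± 1143, mt-Cytb at 25517 ± 1305 and mt-Atp8 at 25033 ± 691, of which neighbours in the order overlapped. The pair of mt-Nd4 (20304 ± 1199) and mt-Nd2 (19973 ± 1075) overlapped as well, as did mt-Nd6 (10640 ± 478) and mt-Nd3 (9937 ± 508). Among the long coding genes mt-Nd5 was the lowest, at 8449 ± 449. Per kilobase mt-Nd4l reached 72.0 ± 9.55. The rRNA genes stood at 1299 ± 127 for mt-Rnr1 and 1229 ± 98.9 for mt-Rnr2, with no separation between them, below all coding genes other than mt-Nd4l.

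Mitochondrial rRNA is plentiful in cells, but rRNA is depleted in many total RNA protocols. The sources used here do not say which rRNAs were removed from these libraries, so the levels of mt-Rnr1 and mt-Rnr2 describe what was left in the libraries. Whether removal differed between groups was not tested. The locus Gm42418, which collects reads of the cytosolic rRNA precursor and was chosen after its values were seen, had 519 ± 45.8 CPM in Control and 477 ± 183 in LLC, with overlapping groups. Its LLC values ran from 222 in LLC 1, the library with the most mt-Rnr1, to 703 in LLC 6.

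The 12S rRNA of the small ribosomal subunit, mt-Rnr1, was the member with the smallest adjusted p. Control 1 to 4 had 1298, 1253, 1343 and 1067 CPM, and LLC ran from 1457 through a median of 1697 to 1929. All LLC libraries were above all Control libraries, and mt-Rnr1 rose by a log2 fold change of 0.44 ± 0.11 (adjusted p = 0.0379). This p passed 0.05 by a small margin. It exceeded 0.05 in 10 of 20 alternatives, among them leaving out any of the 4 Control libraries or LLC 2, 3, 5 or 6, and over the libraries left out in turn it ran from 0.0118 to 0.134.

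For the 16S rRNA of the large subunit, mt-Rnr2, Control 1 to 4 had 1990, 2014, 2061 and 1714 CPM, and LLC had 2302 to 2586 around a median of 2514. Again no LLC library came down to the Control range, at a log2 fold change of 0.34 ± 0.098 (adjusted p = 0.0583). All LLC libraries lay above all Control libraries in 6.4% of all genes tested, and in 3 of the 30 members, mt-Rnr1, mt-Rnr2 and mt-Ta. In both rRNA genes Control 4 was the lowest of the Control libraries.

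**Figure D3:**
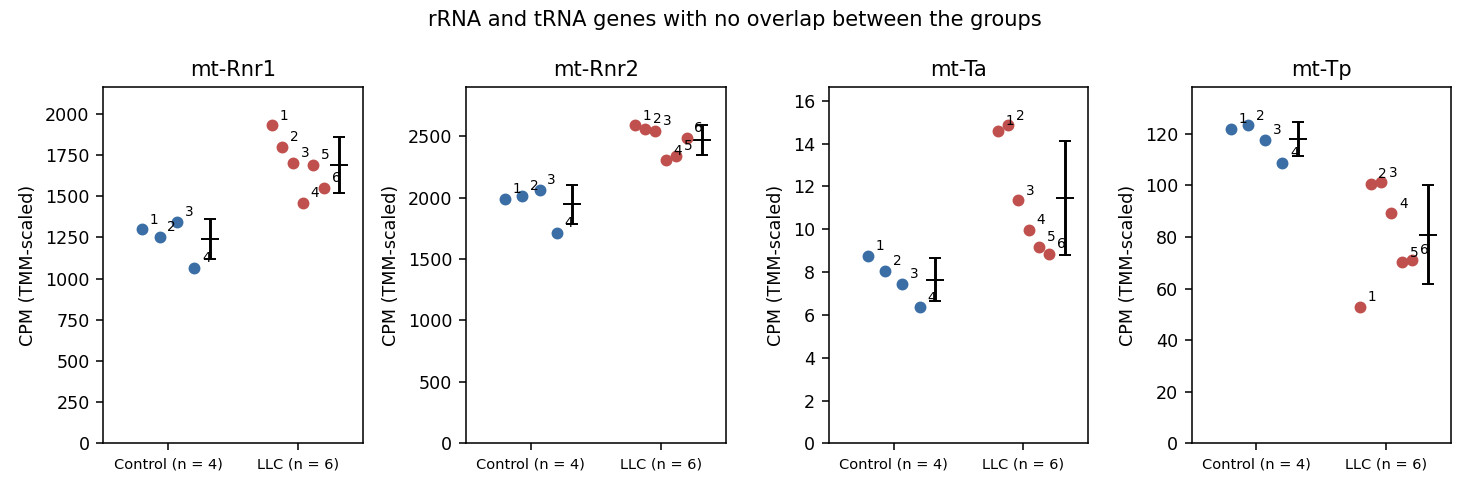
TMM-scaled CPM (y axes from 0) in each library of the rRNA and tRNA genes whose groups did not overlap, numbered by replicate, with group mean ± SD (Control n = 4, LLC n = 6). mt-Rnr1, mt-Rnr2 and mt-Ta are higher in every LLC library than in Control, and mt-Tp is lower.

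The tRNA genes with the most counts were encoded on the − strand. The 8 tRNA genes on the − strand all passed the filter, with Control means from 1.78 to 117.8 CPM, and 4 of them exceeded 20 CPM (mt-Tp, mt-Te, mt-Tn and mt-Tc). Of the 14 tRNA genes on the + strand 7 passed, and the highest, mt-Ti, had a Control mean of 11.1 CPM. Below that level the strands were mixed, since mt-Ta, mt-Ty and mt-Tq of the − strand had lower means than mt-Ti. By default the counter drops reads that overlap more than 1 gene, and tRNAs of the + strand lie in the precursor that also holds most coding genes. The part of that rule in the levels was not tested. The library kit was a stranded one per the study's methods, but the strand setting of the counting is known only as the default. Reads of a − strand tRNA and of + strand precursor antisense to it therefore cannot be told apart with certainty.

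The alanine tRNA, mt-Ta, whose sequence is given above, had 8.74, 8.05, 7.46 and 6.35 CPM in Control 1 to 4, from 116 to 165 counts. In LLC it ran from 8.83 through a median of 10.7 to 14.9 CPM. The groups did not overlap, with LLC 1 and LLC 2 highest (log2 fold change 0.58 ± 0.17, adjusted p = 0.0697). The proline tRNA mt-Tp, at the far end of the gene order, had 121.9, 123.2, 117.6 and 108.6 CPM in Control and 53.0 to 101.1 in LLC around a median of 80.1. Here LLC lay below Control throughout, lowest in LLC 1 (log2 fold change −0.54 ± 0.16, adjusted p = 0.0715).

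The methionine tRNA mt-Tm had the lowest fold change of all members, −0.63 ± 0.22 (adjusted p = 0.103), with 9.90, 9.63, 7.73 and 6.52 CPM in Control and 3.32 to 6.60 around 6.34 in LLC. Its groups touched, since Control 4 fell within the LLC range. Glutamate tRNA, mt-Te, differed little, with 114.8, 103.9, 94.3 and 101.0 CPM in Control and 77.4 to 109.3 around 102.5 in LLC (log2 fold change −0.076 ± 0.11, adjusted p = 0.676). The leucine tRNA that follows the rRNAs, mt-Tl1, had 10.8, 11.3, 10.8 and 9.59 CPM in Control and 5.76 to 10.9 around 8.46 in LLC (log2 fold change −0.32 ± 0.15, adjusted p = 0.197).

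The serine tRNA mt-Ts1 had 214, 207, 218 and 203 counts in Control and 204, 149, 227, 153 and 165 counts in LLC 1, 2, 3, 5 and 6. In LLC 4 it had 0 counts, where 3 counts, the floor taken here, would be 0.150 CPM. Its log2 fold change of −0.45 ± 0.60 (adjusted p = 0.638) rests on that library, and without LLC 4 it was −0.19. The gene overlaps the end of mt-Co1 by 3 bases. LLC 4 also had the lowest count of mt-Nd4l.

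A cluster of − strand tRNAs between mt-Nd2 and mt-Co1 holds mt-Ta and those for asparagine, cysteine and tyrosine. The asparagine tRNA mt-Tn had 42.4, 52.7, 38.8 and 38.9 CPM in Control and 27.2 to 54.7 around 40.7 in LLC (log2 fold change −0.091 ± 0.21, adjusted p = 0.798). The cysteine tRNA mt-Tc had 45.0, 52.8, 39.3 and 35.7 CPM in Control and 27.2 to 64.7 around 45.2 in LLC (log2 fold change 0.059 ± 0.22, adjusted p = 0.879). The tyrosine tRNA mt-Ty had 11.2, 11.5, 9.25 and 10.8 CPM in Control and 8.92 to 14.4 around 12.3 in LLC (log2 fold change 0.18 ± 0.14, adjusted p = 0.405). All 3 overlapped between the groups, unlike mt-Ta.

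The isoleucine tRNA mt-Ti had 11.0, 12.3, 11.3 and 9.80 CPM in Control and 7.92 to 13.5 around 12.4 in LLC (log2 fold change 0.096 ± 0.14, adjusted p = 0.679). The other 5 tested tRNAs were sparse. The glutamine tRNA mt-Tq had 1.96, 2.22, 1.62 and 1.31 CPM in Control and 1.18 to 2.26 around 1.70 in LLC, and the tryptophan tRNA mt-Tw 1.96, 2.12, 1.46 and 2.30 in Control and 1.44 to 3.01 around 1.90 in LLC. The histidine tRNA mt-Th had 3.39, 2.02, 1.62 and 1.21 CPM in Control and 0.615 to 2.20 around 1.49 in LLC. A second serine tRNA, mt-Ts2, had 3.13, 1.38, 1.30 and 0.822 CPM in Control and 0.671 to 1.92 around 1.60 in LLC. These 4 overlapped between groups, with no adjusted p below 0.313, and so did a second leucine tRNA, mt-Tl2, at 3.13, 1.88, 1.46 and 0.767 CPM in Control and 1.06 to 1.85 around 1.30 in LLC (adjusted p = 0.422). Control 1 was the highest Control library in mt-Th, mt-Ts2 and mt-Tl2, which lie next to each other.

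The 7 tRNA genes that were not tested were at or near the floor. The phenylalanine and aspartate tRNAs mt-Tf and mt-Td had 0 counts in all 10 libraries, and the lysine tRNA mt-Tk had 1 count in Control 2 and none elsewhere. The valine tRNA mt-Tv, shown above and placed between both rRNA genes, had at most 2 counts in any library, the glycine tRNA mt-Tg at most 3 and the arginine tRNA mt-Tr at most 7. The threonine tRNA mt-Tt, which adjoins mt-Cytb, had 9, 7, 7 and 1 counts in Control 1 to 4 and 17, 8, 10, 0, 9 and 4 in LLC 1 to 6. Differences in these genes were not detectable at this depth.

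To follow each member relative to the mitochondrial mRNA pool, the fit was repeated with the summed counts of the 13 coding genes as library size. On this scale the median of all genes tested was 0.37, so a typical nuclear gene stands above 0, and 4.33% of all genes were called higher. Of the 30 members tested 3 were called, all higher. mt-Rnr1 rose by 0.83 ± 0.18 on the log2 scale (adjusted p = 0.0210), mt-Rnr2 by 0.72 ± 0.14 (adjusted p = 0.0149) and mt-Ta by 0.97 ± 0.23 (adjusted p = 0.0325). Leaving out Control 1, 3 or 4 ended all 3 calls, and leaving out Control 2 left mt-Rnr2 alone, while leaving out LLC 5 ended the call of mt-Ta.

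Counted per coding gene count, both rRNAs were higher in every LLC library. As a percent of mitochondrial coding counts, mt-Rnr1 was 0.352% to 0.430% in Control and 0.546% to 1.05% in LLC, and mt-Rnr2 was 0.565% to 0.682% in Control and 0.862% to 1.41% in LLC. Besides mt-Rnr1, mt-Rnr2 and mt-Ta, the tRNAs mt-Ti, mt-Ty and mt-Te had all LLC libraries above all Control libraries on this scale, which 28.1% of all genes tested did. Their log2 fold changes were 0.45 ± 0.15 for mt-Ti (adjusted p = 0.0562), 0.53 ± 0.15 for mt-Ty (adjusted p = 0.0530) and 0.28 ± 0.13 for mt-Te (adjusted p = 0.0927).

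**Figure D4:**
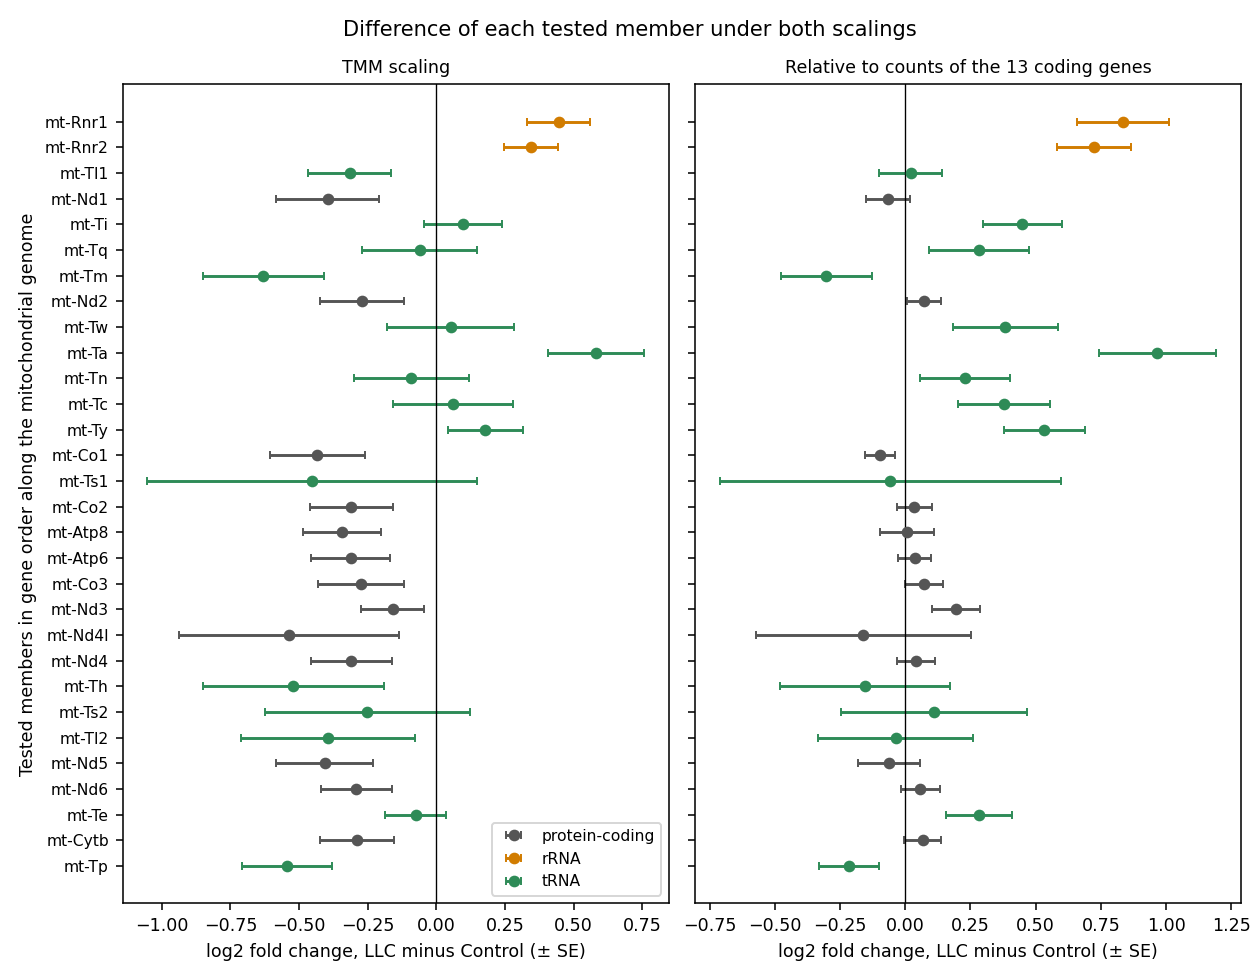
Log2 fold change of LLC minus Control ± SE (x axes) for the 30 tested members in gene order (y axis), scaled by TMM (left) and relative to the counts of the 13 coding genes (right), coloured by class. On the left the 13 coding genes lie between −0.54 and −0.16 and both rRNA genes above 0; on the right the coding genes lie between −0.16 and 0.20 and mt-Rnr1, mt-Rnr2 and mt-Ta between 0.72 and 0.97.

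Within the mRNA pool the proportions of single genes differed little between group means. No coding gene had an unadjusted p of 0.05 or less on this scale, and leaving out mt-Nd4l the log2 fold changes ran from −0.096 ± 0.058 (mt-Co1) to 0.20 ± 0.093 (mt-Nd3). The share of mt-Co1 among coding counts was the only one in which all LLC libraries lay below Control, at 26.9% to 27.8% in Control and 24.1% to 26.4% in LLC. Complex I genes took 31.9% ± 0.245 of coding counts in Control and 32.1% ± 1.33 in LLC, complex III 9.43% ± 0.0839 and 9.88% ± 0.610, complex IV 47.4% ± 0.289 and 46.5% ± 1.67, and complex V 11.3% ± 0.151 and 11.5% ± 0.346. The spread was wider among LLC libraries for every complex.

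Next, 3 ratios between members were compared by exact permutation tests over libraries (two-sided, with p adjusted over the 3 ratios). The ratio of mt-Rnr2 to mt-Rnr1, neighbours in 1 precursor, was 1.57 ± 0.0424 in Control (n = 4) and 1.47 ± 0.107 in LLC (n = 6), with overlapping groups (exact p = 0.133, adjusted p = 0.400). For mt-Nd6 to mt-Cytb, which lie on opposite strands, it was 0.189 ± 0.00367 and 0.188 ± 0.00651 (exact p = 0.781, adjusted p = 0.971). For mt-Nd5 to mt-Nd1, the last and the first coding gene of complex I on the same strand, it was 0.603 ± 0.0232 and 0.613 ± 0.142 (exact p = 0.971, adjusted p = 0.971). The means of this last ratio were alike, but single LLC libraries left the Control range of 0.570 to 0.622 on both sides, with 0.859 in LLC 1 and 0.440 in LLC 5.

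LLC 1 and LLC 5 were also the lowest libraries for the coding genes. Of the 12 coding genes with at least 1000 counts in every library, LLC 1 was the lowest LLC library in 9 and LLC 5 in 3. LLC 3 was the highest LLC library in 7 of the 12, LLC 4 in 4 and LLC 2 in 1. As shares of coding counts, 9 genes of LLC 1 were above the Control range and 2 below it, LLC 6 gave the same counts, LLC 3 had 7 above and 5 below, LLC 4 had 6 and 3, LLC 2 had 4 and 4, and LLC 5 had 5 above and 6 below. Without LLC 1, the mt-Co1 log2 fold change was −0.34 (adjusted p = 0.0583), and members past an adjusted p of 0.05 numbered 4 (mt-Rnr1, mt-Rnr2, mt-Ta and mt-Tp), with none of them called.

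The partner subunits of complexes I to V encoded in the nucleus also had lower means in LLC. All 80 nuclear subunit genes had lower means in LLC, with a median log2 fold change of −0.34, and in 43 of them no LLC library reached Control, beside 9.57% of all genes tested. None was called by edgeR, 43 had an unadjusted p of 0.05 or less, beside 27.4% of all genes, DESeq2 called 1 (Atp5g3) and limma voom called 0. Medians were −0.32 for the 36 genes of complex I, −0.44 for the 4 of complex II, which has no mitochondrially encoded subunit, −0.41 for the 9 of complex III, −0.30 for the 15 of complex IV and −0.36 for the 16 of complex V.

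The nuclear subunits with the largest differences in each complex were Ndufs8 (−0.57 ± 0.19, adjusted p = 0.0924), Ndufa11 (−0.52 ± 0.20, adjusted p = 0.124) and Ndufb10 (−0.49 ± 0.16, adjusted p = 0.0922) in complex I. In complex II they were Sdhd (−0.56 ± 0.18), Sdhb (−0.55 ± 0.20) and Sdhc (−0.34 ± 0.13), and in complex III Cyc1, which carries the heme of cytochrome c1 (−0.61 ± 0.23), and the core proteins Uqcrc1 (−0.53 ± 0.19) and Uqcrc2 (−0.49 ± 0.16). Cox7a1, the muscle isoform of its complex IV subunit (−0.65 ± 0.26, adjusted p = 0.143), had the largest difference among all 80. Next in complex IV were Cox4i2 (−0.53 ± 0.26) and Cox5b (−0.47 ± 0.15). Of these Cox4i2 was sparse, with at most 45 counts in any library and overlapping groups. In complex V they were the ring subunit genes Atp5g3 (−0.62 ± 0.19, adjusted p = 0.0720) and Atp5g1 (−0.51 ± 0.16) and the catalytic-head gene Atp5a1 (−0.44 ± 0.17). The adjusted p of all nuclear subunits named here lay between 0.0720 and 0.205.

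The sums of both genomes were then set against each other within each library. There were 11.86, 10.4, 10.75 and 11.21 mitochondrial coding counts for each nuclear subunit count in Control 1 to 4, and 12.57, 10.95, 11.11, 11.22, 9.59 and 12.18 in LLC 1 to 6. The groups overlapped, and LLC 1, lowest in both sums, had the highest of these ratios, whereas LLC 5 had the lowest. In CPM, LLC 1 had 183955 for the coding genes and 14630 for the nuclear subunits, beside 295577 to 326361 and 27048 to 29052 in Control.

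**Figure D5:**
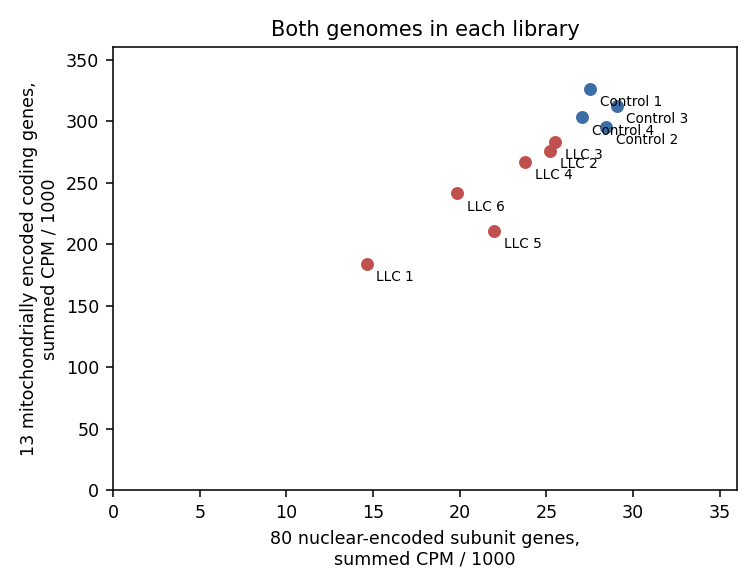
Summed TMM-scaled CPM, divided by 1000, of the 13 mitochondrially encoded coding genes (y axis) against that of the 80 nuclear-encoded subunit genes of complexes I to V (x axis), 1 point for each library, Control in blue and LLC in red, both axes from 0. The 6 LLC libraries lie below and to the left of the 4 Control libraries, LLC 1 farthest.

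Genes that copy, transcribe and process mitochondrial RNA differed among themselves in direction. None of the 49 tested genes of these 3 lists was called by edgeR, 12 had an unadjusted p of 0.05 or less, beside 27.4% of all genes, and DESeq2 called 2 (Mrm1 and Mterf2) and limma voom 1. The 9 genes for maintenance of the mitochondrial genome had a median log2 fold change of 0.12, with 8 of them above 0. Tfam, which packages mitochondrial DNA and starts its transcription, stood at −0.040 ± 0.11 (adjusted p = 0.829). The largest differences in this list were in Top1mt, a mitochondrial topoisomerase (0.24 ± 0.092, adjusted p = 0.123), and in the DNA polymerase subunits Polg (0.17 ± 0.085) and Polg2 (0.16 ± 0.13).

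Of 9 genes listed for mitochondrial transcription 8 were tested, with a median of 0.038. The RNA polymerase Polrmt stood at 0.021 ± 0.092 (adjusted p = 0.899) and its partner factor Tfb2m at 0.21 ± 0.10 (adjusted p = 0.210). The largest differences were in Mterf2 (−0.82 ± 0.28, adjusted p = 0.0947), the elongation factor Tefm (−0.34 ± 0.10, adjusted p = 0.0715) and Mterf3 (0.32 ± 0.14, adjusted p = 0.156).

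The 32 genes for processing and stability of mitochondrial RNA had a median of −0.11, with 21 below 0. The helicase Supv3l1, a part of the machinery that degrades mitochondrial RNA, fell by 0.36 ± 0.096 on the log2 scale (adjusted p = 0.0469), short of 1.5-fold. Lrpprc and Slirp, which together bind and stabilise mitochondrial mRNAs, stood at −0.15 ± 0.11 (adjusted p = 0.354) and −0.091 ± 0.11 (adjusted p = 0.618). The largest differences were in Mrm1 (−0.70 ± 0.21, adjusted p = 0.0720) and Mrm2 (−0.45 ± 0.31), both methyltransferases of 16S rRNA, and in the translation activator Taco1 (−0.52 ± 0.23).

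Markers of muscle fibers and of other cells were read beside these results. Of 9 markers of slow and oxidative fibers 8 were lower in LLC. By edgeR 1 was called, Myl2, which had at most 80 counts in any library and overlapping groups, and DESeq2 called 4. The summed CPM of the 9 was 4191 to 5196 in Control and 1322, in LLC 1, to 3871 in LLC. Most of it came from Mb, with a mean of 4049 CPM in Control. Among them Mb, the oxygen-binding myoglobin, stood at −0.73 ± 0.23 (adjusted p = 0.0812). Of 9 markers of fast fibers 7 were lower in LLC and 2 higher, with a median log2 fold change of −0.23. None of them was called by edgeR or DESeq2. The largest differences were in Myh1 (−0.72 ± 0.26, adjusted p = 0.114) and Myl1 (−0.71 ± 0.29, adjusted p = 0.144). Fast markers summed to 113969 to 121091 CPM in Control and 82996 to 126784 in LLC, a level fitting the labelled muscle. Of 11 neutrophil markers 10 were tested and all 10 were called higher, with summed CPM of 0.953 to 3.06 in Control and 35.5 to 76.3 in LLC. Of 7 fibroblast markers 6 were called lower and 1 higher, with summed CPM of 272 to 347 in Control and 103 to 131 in LLC. Of 5 tested erythroid markers 3 were called higher, and their sums were 58.8 to 83.4 CPM in Control and 88.8 to 144.6 in LLC. Of 7 tested macrophage and 6 endothelial markers 1 each was called lower, and the sums were 15.5 to 23.1 and 9.73 to 17.1 CPM for macrophages and 306 to 378 and 286 to 341 CPM for endothelium, in Control and LLC. The part of these cells and fibers in the differences of the mitochondrial genes was not tested.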

How the data were processed

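RNA of TA muscle was sequenced from 4 Control and 6 LLC mice as paired reads of 100 bases. The authors mapped the reads to build mm10 with TopHat2 and counted them with HTSeq at default settings, and the deposited values are raw counts per Ensembl gene, not normalised, from 1 library per mouse. Their methods name RefSeq genes, so the annotation behind the counts is uncertain. Totals ranged from 16693209 to 21303084 counts, and intervals cover counting error only. At LLC 1 the share of all members had a 95% Wilson interval of 21.97% to 22.01%.

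Counts of 12690 genes passing filterByExpr (minimum 10) were compared by edgeR 4.0.16 (R 4.3.3) with TMM factors, the group as sole term and Benjamini-Hochberg adjustment over all genes. SE was derived from the F statistic. CPM are TMM-scaled, and positions come from GENCODE M21 (mm10). On simulated counts 171 of 200 changed genes were recovered, with 7 false calls. Each gene was simulated with the same spread setting in both groups, whereas the coding genes here varied more in LLC than in Control. That rate is given here for all 200 changed genes together, not by size of change. It therefore does not show how often differences below 1.5-fold, such as those of all coding genes, would be detected. DESeq2 1.42.0 and limma 3.58.1 were alternatives, as were other scalings, filters, a replicate block and each library left out. Ratios were tested in SciPy 1.17.1, where the smallest possible p is 0.00952. All coding and rRNA genes and tested tRNAs were named. Of the pathway lists, preset genes, those past the threshold and the 3 largest differences were named. The members, lists and tests were chosen with earlier results of these data known.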

Additional observations from a re-analysis of the deposited data

Results flagged for a closer look

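Within each group of libraries, the highest and the lowest value were compared with the rest by Dixon's criterion for 92 combinations of a group with a tested member, a list sum or a ratio. It was met in 2 of them, fewer than the 4.6 that chance alone gives at 1 in 20. The isoleucine tRNA mt-Ti was low in LLC 1, at 7.92 CPM, with a gap to the next LLC library of 0.672 of the group's range. The summed level of the mitochondrial transcription list was high in LLC 1, at 137.4 CPM, with a gap of 0.715 of the range. LLC 1 is also the library with the lowest coding share and the highest mt-Rnr1 level.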

How the results depend on the processing

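Called members numbered 2 with total counts alone (mt-Rnr1 and mt-Ta), 1 with DESeq2 and 0 to 1 with each library left out (mt-Tp without LLC 2). Members with an adjusted p of 0.05 or less numbered 3 with total counts alone, 0 with no filter, 5 with DESeq2, 7 with limma voom, 0 with the replicate block and 0 to 4 with each library left out. Relative to mitochondrial coding counts, calls numbered 0 with the replicate block and 0 to 3 with each library left out. Pathway list calls numbered 3 with DESeq2 and 0 to 1 with each library left out. Total counts alone raised the median of all genes by 0.14, other scalings by at most 0.035 in size. Log2 fold changes turned in sign for mt-Ti (−0.016, replicate block), mt-Tq (0.067 with total counts, 0.079 with voom), mt-Tn (0.024 with total counts, 0.052 with voom, 0.034 with the block), mt-Ts2 (0.15 with the block) and mt-Te (0.056 with total counts). With each library left out, mt-Tq ran from −0.18 to 0.066, mt-Tw from −0.088 to 0.14, mt-Tn from −0.19 to 0.019, mt-Tc from −0.073 to 0.18, mt-Ts2 from −0.47 to 0.25 and mt-Tl2 from −0.64 to 0.0010. The log2 ratio difference of mt-Nd6 to mt-Cytb was 0.0092 by medians and −0.019 to 0.0051 with libraries left out, that of mt-Nd5 to mt-Nd1 0.010 as a linear ratio and −0.11 to 0.084 with libraries left out. The cause of these changes was not tested. In every alternative to the TMM fit that was run, all 13 coding genes stayed below 0 and both rRNA genes above 0. The replicate numbers belong to different mice, and deviations of same-numbered libraries correlated at −0.081 to 0.13, so they share only a number. Low counts limit the tRNAs.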
